A study of Mus musculus with 87 samples.

Results

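Of the 7796 SUZ12 peaks that the authors deposited for mouse embryonic stem cells, 210 overlapped no peak of the deposited PCL2 list by even 1 base, and these 210 regions are described here. The other 7586 SUZ12 peaks overlapped a PCL2 peak, 3921 of them together with a JARID2 peak and 3665 without one. The members were chosen by comparing the SUZ12 and PCL2 positions alone, so the absence of PCL2 peaks is the rule and not a result. The 210 regions covered 144.8 kb.

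The series comprises 87 samples of mouse embryonic stem cells, the pluripotent cells of the early embryo, that were wild type, lacked subunits of Polycomb repressive complex 2 (PRC2), or carried tagged subunits in such knockouts. Of these, 63 are chromatin immunoprecipitations and 24 are RNA libraries, and the 3 peak lists (SUZ12, JARID2 and PCL2, the last with 20003 peaks and JARID2 with 4991) belong to the whole series. The labels give 2 SUZ12, 1 JARID2 and 1 PCL2 immunoprecipitation from wild-type cells (strain 129B6F1, kept in 2i medium on a gelatin coat), with the PCL2 one made with an antibody to Mtf2, but in the sources used here nothing says from which genotype and libraries each list came, with what peak caller and threshold, or whether libraries were pooled. Each list entry is a chromosome and 2 positions (build mm10), without score or replicate, so no test of a difference could be made, shares are given with 95% Wilson intervals that cover counting error only, and depth is unknown.

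PRC2 places methyl groups on lysine 27 of histone H3 and keeps developmental genes silent in embryonic stem cells. SUZ12 is a core subunit that every form of the complex contains. PCL2, the product of Mtf2, is a Polycomb-like accessory subunit that binds CpG-rich DNA and defines one form of PRC2, whereas JARID2 is an accessory subunit of the alternative form, which also recognises ubiquitylated histone H2A.

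The sequences below are windows of 300 bases around annotated transcription starts (250 before and 50 after), taken from RefSeq (GRCm38.p6, which shares its coordinates with mm10); sequences of the peaks themselves were not used here. The first 3 windows lay whole under SUZ12 peaks without PCL2 and show the CpG-dense starts that some of these regions cover. Bmi1 was given by the naming rule, and Smarca5 and Afg3l1 were chosen after their values were seen, as the other windows of the 10 widest members that were covered whole. They are Bmi1 (chr2:18676768-18677067, plus strand, 23 CpG), Smarca5 (chr8:80739410-80739709, minus strand, 32 CpG) and Afg3l1 (chr8:123477612-123477911, plus strand, 34 CpG). The Ezhip window (chrX:6083371-6083670, minus strand, 5 CpG) is shown beside them because its gene holds a member with JARID2 but its start lies under a PCL2 peak instead. Capitals mark CG dinucleotides, and each sequence reads 5′ to 3′.
Bmi1: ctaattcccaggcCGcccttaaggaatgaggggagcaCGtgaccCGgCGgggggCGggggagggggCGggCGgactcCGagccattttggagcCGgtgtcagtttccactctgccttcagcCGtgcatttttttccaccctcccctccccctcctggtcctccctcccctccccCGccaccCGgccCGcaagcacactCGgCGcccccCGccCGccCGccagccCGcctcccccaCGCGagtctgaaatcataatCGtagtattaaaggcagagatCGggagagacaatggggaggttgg
Smarca5: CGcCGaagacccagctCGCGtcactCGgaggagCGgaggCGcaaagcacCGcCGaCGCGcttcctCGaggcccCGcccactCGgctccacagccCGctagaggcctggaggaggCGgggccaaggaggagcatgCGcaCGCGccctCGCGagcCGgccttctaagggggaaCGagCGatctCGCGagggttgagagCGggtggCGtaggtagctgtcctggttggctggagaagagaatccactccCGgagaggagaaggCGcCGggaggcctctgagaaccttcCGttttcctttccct
Afg3l1: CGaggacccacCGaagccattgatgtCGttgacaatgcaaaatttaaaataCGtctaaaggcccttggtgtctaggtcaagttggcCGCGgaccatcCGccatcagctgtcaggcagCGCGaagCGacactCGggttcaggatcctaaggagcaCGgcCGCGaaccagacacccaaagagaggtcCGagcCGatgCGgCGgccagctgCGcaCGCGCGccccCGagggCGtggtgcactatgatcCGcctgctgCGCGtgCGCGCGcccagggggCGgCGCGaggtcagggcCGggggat
Ezhip: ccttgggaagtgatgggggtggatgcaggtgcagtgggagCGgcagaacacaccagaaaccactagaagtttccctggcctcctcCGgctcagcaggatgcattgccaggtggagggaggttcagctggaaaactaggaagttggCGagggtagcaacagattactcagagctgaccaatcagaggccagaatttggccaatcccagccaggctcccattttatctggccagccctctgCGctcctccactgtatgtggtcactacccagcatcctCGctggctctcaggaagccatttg

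A second pair of windows shows a tandem array on chromosome 8 with 5 of the regions in or beside it. The predicted genes Gm51591 (chr8:55366055-55366354, plus strand) and Gm51594 (chr8:55382541-55382840, plus strand) had starts that were 99.3% identical and differed at 2 of 300 bases. In the lines below the capitals mark those bases, T205G and T221G, with the Gm51591 base first and positions counted from the 5′ end of the window. Neither window lay under a SUZ12 peak without PCL2. The peak at chr8:55373486-55373776 lay between these 2 copies, and the others of the 5 lay before Gm51591.
Gm51591: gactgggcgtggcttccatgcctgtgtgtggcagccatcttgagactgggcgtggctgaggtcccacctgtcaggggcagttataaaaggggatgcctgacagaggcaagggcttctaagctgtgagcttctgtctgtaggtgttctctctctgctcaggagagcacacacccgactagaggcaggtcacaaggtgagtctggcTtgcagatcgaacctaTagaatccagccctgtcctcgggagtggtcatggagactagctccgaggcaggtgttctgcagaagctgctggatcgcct
Gm51594: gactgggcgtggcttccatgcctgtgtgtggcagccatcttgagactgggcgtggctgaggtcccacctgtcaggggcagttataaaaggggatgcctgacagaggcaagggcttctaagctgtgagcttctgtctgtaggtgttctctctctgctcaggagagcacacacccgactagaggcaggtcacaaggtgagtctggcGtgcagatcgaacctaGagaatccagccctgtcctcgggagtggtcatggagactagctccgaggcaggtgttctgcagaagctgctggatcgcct

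SUZ12 peaks without PCL2 were narrow. Their median width was 557 bp (quartiles 423 and 797 bp), against 1052 bp in SUZ12 peaks with PCL2 alone (quartiles 738 and 1441 bp) and 2076 bp in those with both PCL2 and JARID2 (quartiles 1499 and 2965 bp). The narrowest member spanned 202 bp and the widest 5285 bp, and 31 of 210 were wider than 1 kb. The distributions overlapped broadly, since the upper quartile of members exceeded the lower quartile of peaks with PCL2 alone.

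**Figure D1:**
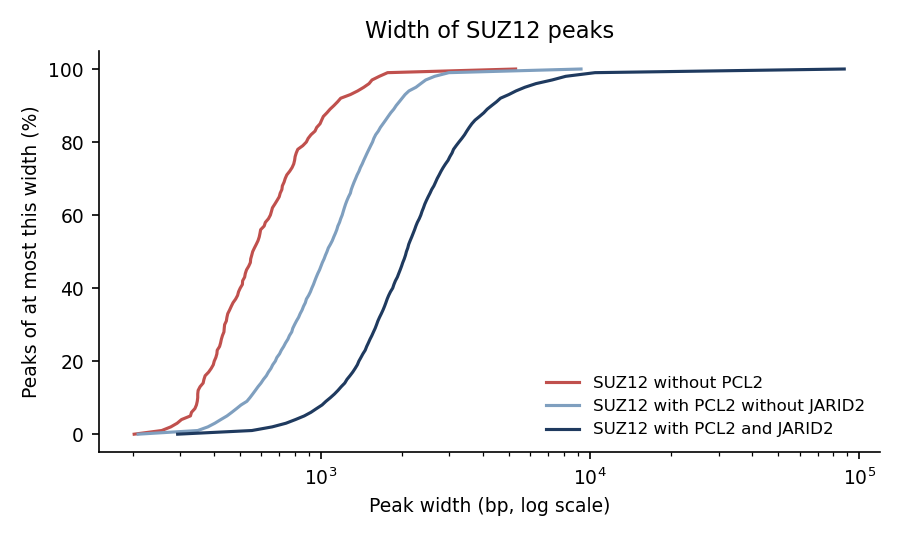
Cumulative share of SUZ12 peaks (%) by peak width (bp, log scale) for peaks without PCL2, with PCL2 but without JARID2, and with both; lines join percentiles. The curve of peaks without PCL2 lies to the left, with a median of 557 bp against 1052 and 2076 bp.

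The regions ranged from pieces beside PCL2 peaks to sites far from any. The gap to the nearest PCL2 peak had a median of 9563 bp, with 56 members at most 1 kb away, 51 between 1 and 10 kb away and 103 (49.0%) more than 10 kb away, 22 of which were over 100 kb away. Of the 56 close ones, 43 also lay within 1 kb of a SUZ12 peak that had PCL2, and 33 within 1 kb of a JARID2 peak. Of the 103 distant ones, 1 lay within 10 kb of a SUZ12 peak with PCL2. The grouping by distance nearly fixes this count, because a SUZ12 peak with PCL2 overlaps a PCL2 peak by definition. The most distant was a peak of 430 bp on chromosome 10 (chr10:124545002-124545431), 843476 bp from the nearest PCL2 peak and 673838 bp from the nearest protein-coding gene, Slc16a7, a monocarboxylate transporter.

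**Figure D2:**
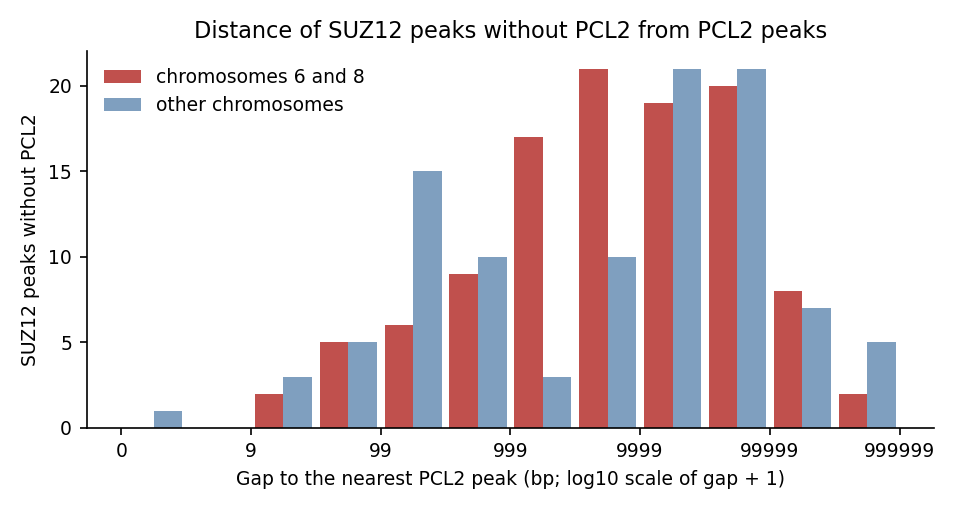
Number of SUZ12 peaks without PCL2 by gap to the nearest PCL2 peak (bp, on a log10 scale of gap + 1), with members on chromosomes 6 and 8 beside those on the other chromosomes. On chromosomes 6 and 8, 38 of 109 lay 1 to 10 kb from PCL2, against 13 of 101 on the other chromosomes.

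The 56 close members included peaks in or beside genes of many kinds, and those named in this paragraph and the next were chosen after their values were seen and show no theme of the group. Of 51 listed developmental regulators, only Foxa2 had an end within 1 kb of a member, a measure that leaves out peaks deeper inside a gene. A peak of 745 bp beside Nkx2-4, a homeobox gene of the NK2 class, touched a PCL2 peak with no base between them and lay 140 bp from a SUZ12 peak with PCL2. Peaks inside Gata4, which encodes a heart and endoderm regulator, Fgf9, a growth factor gene, and Pou4f2, which encodes a regulator of retinal ganglion cells, lay 80, 99 and 108 bp from PCL2. A peak in Tal1, a master regulator of blood formation, lay 460 bp away, and one in Otp, a hypothalamic homeobox gene, lay 472 bp away. Each of these 6 had a SUZ12 peak with PCL2 within 1 kb, at 140 to 774 bp. Beside Hoxa13, the last gene of the Hoxa cluster, a member of 1081 bp lay 548 bp from PCL2 and 127 bp from a SUZ12 peak with PCL2. Other close members lay in genes such as Scnn1a, an epithelial sodium channel subunit, 751 bp from PCL2, and Abca17, an ABC transporter, 573 bp from PCL2. Some had no SUZ12 peak with PCL2 within 1 kb: the peak in Nanos1, an RNA-binding germ cell gene, lay 18 bp from PCL2 but 133323 bp from the nearest SUZ12 peak with PCL2, and the peak in Klf15, a zinc finger gene, 22 bp from PCL2 but 32845 bp from such a SUZ12 peak.

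Among the 103 distant members, a transcription start lay under 26 (25.2%, interval 17.8 to 34.4%), against 4 of the 56 close members (7.14%, interval 2.81 to 17.0%) and 8 of the 51 between (15.7%, interval 8.17 to 28.0%). Starts were known only for genes with a promoter window, which several genes at members lacked. An end of a gene lay within 1 kb of 53.4% of distant members (interval 43.8 to 62.7%) and 39.3% of close ones (interval 27.6 to 52.4%), with overlapping intervals. The starts under distant members included Smarca5, the catalytic subunit of ISWI nucleosome remodellers, 51666 bp from PCL2. They also included Dync1i1, a dynein intermediate chain, 84256 bp away, and Epm2a, the glycogen phosphatase laforin, 261249 bp away. Tfdp1, the partner of E2F transcription factors, was 19930 bp from PCL2, Spg7, a mitochondrial protease, 50661 bp, and Atxn1l, an ataxin-1 relative, 30425 bp.

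At the edge of the rule the distinction rested on few bases. The 6 members nearest to PCL2 had gaps of 0, 11, 12, 14, 18 and 22 bp, and the 6 SUZ12 peaks with the smallest overlap shared 8, 11, 14, 15, 20 and 24 bp with PCL2. Of the 7586 SUZ12 peaks counted as having PCL2, 22 had at most 100 bp under it.

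A JARID2 peak overlapped 14 of 210 (6.67%, interval 4.01 to 10.9%), against 51.7% of SUZ12 peaks with PCL2 (interval 50.6 to 52.8%), so 196 regions carried a SUZ12 peak alone. Narrow peaks and late entries of the list seldom had JARID2, with or without PCL2, and the parts of width and list place in the contrast were not tested. At widths of 424 to 797 bp the shares were 9.62% of members (interval 5.31 to 16.8%) and 12.5% of SUZ12 peaks with PCL2 (interval 10.7 to 14.6%), with overlapping intervals. In the last 2 of 10 equal bins of the SUZ12 list, which held 171 of the members, they were 6.43% (interval 3.63 to 11.2%) and 13.9% (interval 12.2 to 15.8%). Here the intervals did not overlap. Among the 14, 9 lay within 1 kb of a PCL2 peak. Of the members on chromosome 8, 0 of 64 overlapped JARID2, which allows a share of up to 4.69% (3 counts of the total; the upper Wilson limit is 5.66%), against 3 of 45 on chromosome 6 and 11 of 101 elsewhere.

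Of the 14 peaks with JARID2, 4 lay within 1 kb of an end of a protein-coding gene. The widest, 4035 bp at chr2:18675626-18679660, covered the start of Bmi1, a core subunit of Polycomb repressive complex 1, which binds the mark that PRC2 makes. It was separated from PCL2 by 1007 bp, and the same peak reached into the neighbouring gene Commd3. A peak of 614 bp lay within Ezhip (chrX:6082015-6082628), which encodes an inhibitor of the PRC2 methyltransferase. Its nearest PCL2 peak was 114 bp away, over the Ezhip start, but the nearest SUZ12 peak with PCL2 was 33507 bp away. A peak of 552 bp stood 485 bp from Foxa2, a regulator of endoderm, and 203 bp from PCL2. A peak of 646 bp in Gng11, a G protein gamma subunit gene on chromosome 6, was the most isolated of the 4, at 35300 bp from PCL2 and 238161 bp from a SUZ12 peak with PCL2. The other 10 included peaks within Hoxb3 and Meis2, homeobox genes, 258 and 37 bp from PCL2, a pair beside Foxf2, a forkhead gene, 46 and 364 bp from PCL2, and the tRNA region described next.

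The widest region of all was a stretch of transfer RNA genes on chromosome 1 and not a single-copy gene. The peak of 5285 bp at chr1:171077367-171082651 was the first entry of the SUZ12 list. What ordered that list is unknown. It held 5 tRNA genes (n-TEctc7, n-TGtcc4, n-TDgtc6, n-TLcag8 and n-TGgcc14) of 25 within 50 kb. The same 5 kinds, in the same order, lay 7574 to 7671 bp apart in 3 consecutive groups. In the group before it a SUZ12 peak of 6076 bp lay under a PCL2 peak of 7113 bp, and in the group before that a SUZ12 peak of 3807 bp overlapped a PCL2 peak of 3343 bp. Over the third group the nearest PCL2 peak stood 445 bp from the SUZ12 peak, while JARID2 peaks were listed within or beside all 3 groups. The sources used here do not give how reads that match several copies were placed, and the part of such placement in the missing PCL2 peak was not tested.

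**Figure D3:**
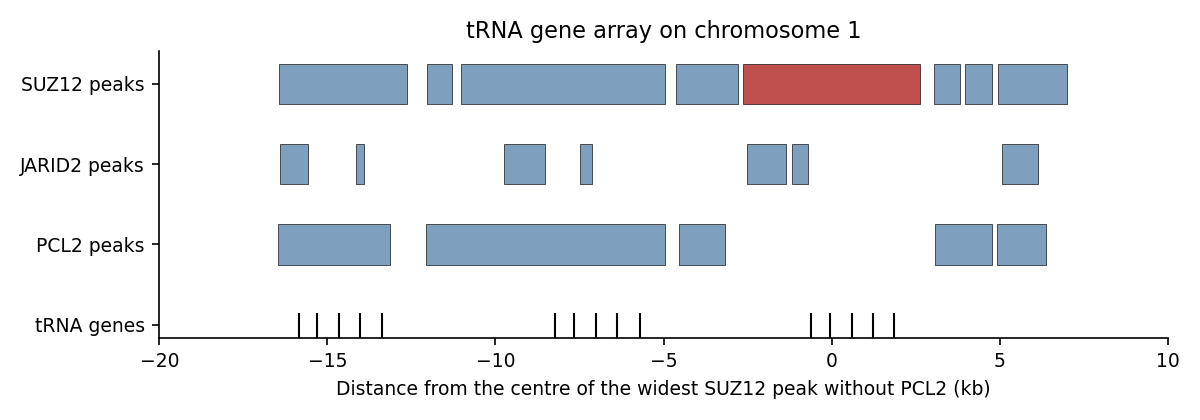
SUZ12, JARID2 and PCL2 peaks (bars) and tRNA genes (ticks) by distance (kb) from the centre of the widest SUZ12 peak without PCL2, which is the red bar. The 3 groups of 5 tRNA genes each lie under SUZ12 and near JARID2 peaks, and PCL2 peaks cover the 2 groups to the left but not the one at 0.

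Apart from the tRNA peak and Bmi1, the 10 widest members were peaks of 1471 to 1770 bp without JARID2. At 1770 bp came a peak within Fam222a on chromosome 5, 6733 bp from PCL2. The peak at the start of Smarca5 measured 1737 bp, and one within Nfix, a nuclear factor I gene, 1663 bp. A peak of 1573 bp lay within Tsnax, the gene of the translin partner TRAX, 8930 bp from PCL2, and one of 1552 bp at the start of Afg3l1, a mitochondrial protease gene, 33585 bp from PCL2. The remainder were a peak of 1531 bp near Rgma, a repulsive guidance molecule, one of 1528 bp at the start of Adgrl1, a latrophilin receptor, and one of 1471 bp at B3gnt9, a glycosyltransferase. Of these 10 widest members 6 were on chromosome 8 and none on chromosome 6.

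The members gathered at the end of the SUZ12 list. When the list was divided into 10 equal bins by row, the last 2 bins held 171 of 210 (81.4%), and the last bin alone 120, which was 15.4% of its peaks. The first 5 bins held 7, among them the tRNA peak in row 1, the Bmi1 peak in row 9, a peak of 852 bp in row 691 on chromosome 6 and the Smarca5 peak in row 3321. Peaks with PCL2 also became narrower down the list. Within each of bins 6 to 10 members had the lower median width, for example 620 bp against 869 bp for peaks with PCL2 in bin 9 and 489.5 bp against 653.5 bp in bin 10.

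**Figure D4:**
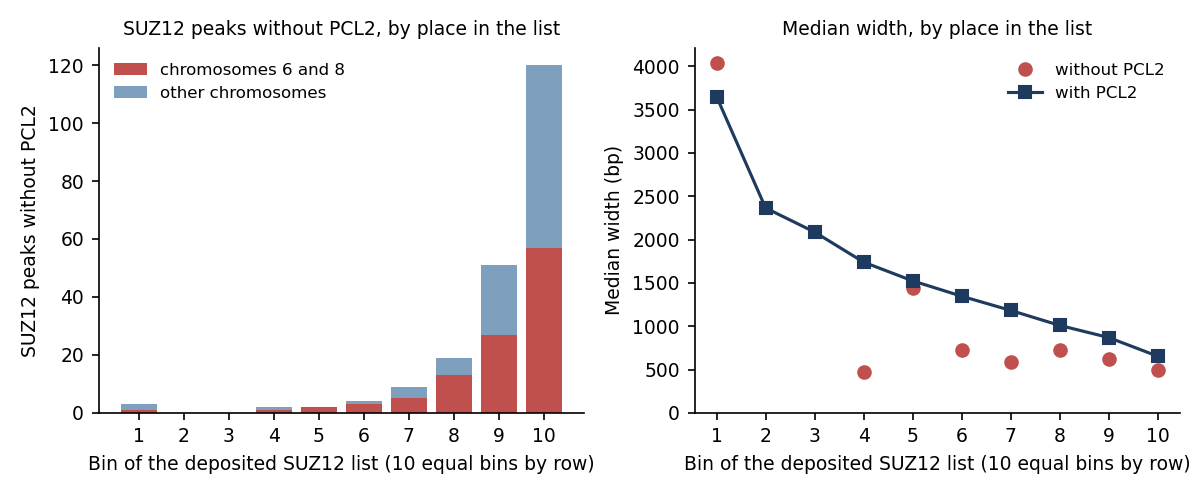
Left, number of SUZ12 peaks without PCL2 in each of 10 equal bins of the deposited list, stacked as chromosomes 6 and 8 below the other chromosomes. Right, median width (bp) per bin of peaks without PCL2 (circles) and with PCL2 (squares). The last bin holds 120 of the 210.

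Arrays of annotated genes were looked for around each region, whereas repeats within the peaks themselves were not examined, as no peak sequence was used here. A member was placed in an array where at least 3 genes of 1 repeated family, or a pair of like promoter windows (at least 80% identity), lay within 100 kb. This held for 21 of 210 (interval 6.63 to 14.8%), against 403 of 7586 SUZ12 peaks with PCL2 (5.31%, interval 4.83 to 5.84%). At widths of 424 to 797 bp it held for 4 of 104 members (3.85%, interval 1.51 to 9.47%). Of peaks with PCL2 alone at those widths it held for 52 of 957 (5.43%, interval 4.17 to 7.06%), with overlapping intervals. Some members lay near the same array, and the intervals treat them as independent. By family, 7 members lay among zinc finger genes named Zfp, 3 among olfactory receptor genes and 2 among 5S ribosomal RNA genes, with 1 each among tRNA, type I interferon and vomeronasal receptor genes. The Afg3l1 peak printed above was one of the pair near 5S ribosomal RNA genes, with 23 such genes within 100 kb. The interferon member, 1285 bp across Ifnz, lay 175 bp from PCL2.

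Runs of at least 3 members with gaps of at most 100 kb numbered 5, held 20 members (9.52%, interval 6.25 to 14.3%), and all lay on chromosome 6 or 8. The run with most members, 5 over 25988 bp at chr8:55347789-55373776, reached into the array of Gm51591 shown above. Only the last peak of the run lay among the like starts, and Gm51594 lay beyond the run. The peaks of this run were 291 to 1151 bp wide and 234349 to 260046 bp from PCL2. No SUZ12 peak with PCL2 lay between them. The 4 genes of the run comprised 2 protein-coding ones (Gm51591 and Gm51573) and 2 pseudogenes. A further 4 members over 7375 bp lay nearby at the predicted genes Gm51571 and Gm51572, 2637 to 9582 bp from PCL2. On chromosome 6, 4 members over 59258 bp (chr6:47776523-47835780) ran past Rny1 and Rny3, which encode the Y RNAs bound by the Ro protein, to the zinc finger genes Zfp786 and Zfp398. The others were 4 members along Hook3, Rnf170 and Thap1 on chromosome 8 and 3 within Gse1, and the Gse1 run was the one with SUZ12 peaks with PCL2 (2) between its members. With runs and arrays set aside, 178 members remained.

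The regions were concentrated on chromosomes 6 and 8. Chromosome 8 held 64 of them, 8.99% of its 712 SUZ12 peaks, and chromosome 6 held 45, 7.31% of its 616. On each of the other 18 chromosomes the share lay between 0.526% (chromosome 11) and 2.89% (chromosome 14), with a median of 1.63%. Together the pair had 8.21% (interval 6.85 to 9.81%), against 1.56% on the others (interval 1.29 to 1.89%). This pair was set apart after the data were seen and had the highest shares, so the comparison describes the skew and does not test it. The intervals treat peaks as independent, although every run of members lay on these chromosomes.

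**Figure D5:**
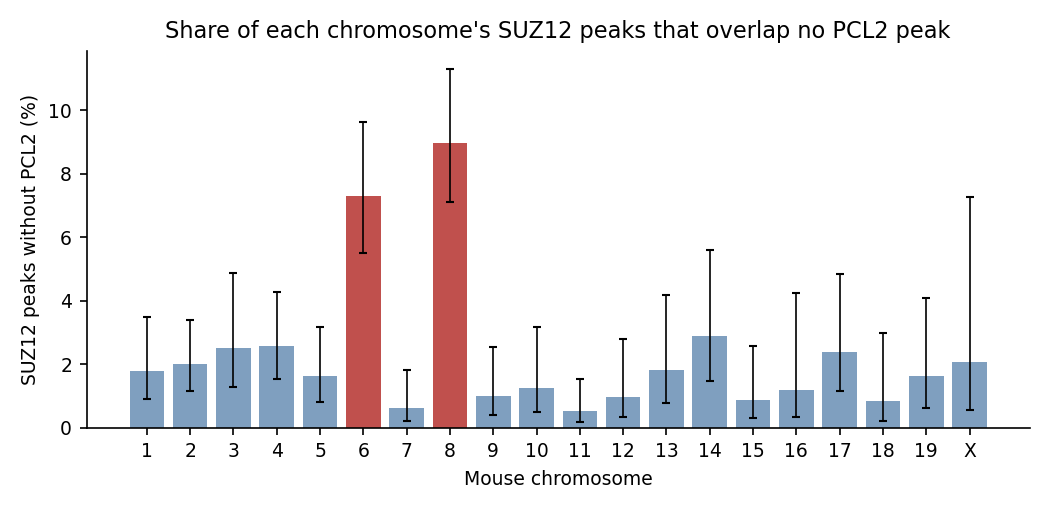
Share of the SUZ12 peaks of each mouse chromosome that overlapped no PCL2 peak (%), with 95% Wilson intervals (counting error only). Chromosomes 6 (7.31%) and 8 (8.99%), in red, stand above the others, which run from 0.526 to 2.89%.

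Chromosomes 6 and 8 held 51.9% of the members (interval 45.2 to 58.6%), against 16.1% of SUZ12 peaks with PCL2. Chromosome 6 holds 5.21% and chromosome 8 holds 4.82% of protein-coding genes. The size of this skew varied between subsets. Among members outside runs and arrays the pair held 47.2% (interval 40.0 to 54.5%), against 16.4% of SUZ12 peaks with PCL2 outside arrays. In the last 2 bins of the list it held 49.1% (interval 41.7 to 56.6%), against 17.8% of the peaks with PCL2 there (interval 15.9 to 19.9%). Among members of 424 to 797 bp, the central part of their widths, it held 46.2% (interval 36.9 to 55.7%), against 153 of 957 peaks of those widths with PCL2 alone (interval 13.8 to 18.4%). In bins 6 to 8 of the list it held 65.6% of 32 members (interval 48.3 to 79.6%), against 14.5% of peaks with PCL2 (interval 13.1 to 15.98%). By distance, the pair held 39.3% of members at most 1 kb from PCL2 (interval 27.6 to 52.4%), 74.5% of those 1 to 10 kb away (interval 61.1 to 84.5%) and 47.6% of those farther away (interval 38.2 to 57.1%). Of the 14 members with JARID2 it held 3. The members were spread along both chromosomes, in 14 of 15 windows of 10 Mb on chromosome 6 and 12 of 13 on chromosome 8. The spread was uneven, as the fullest window held 6 of 45 members on chromosome 6 and 14 of 64 on chromosome 8.

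Some of the other lists also ran high on 1 or both of these chromosomes. Per 100 protein-coding genes, SUZ12 peaks without PCL2 numbered 6.14 on chromosome 8, against a median of 0.505 on the chromosomes other than 6 and 8. SUZ12 peaks with PCL2 numbered 62.1 on chromosome 8 and 50.7 on chromosome 6, against 9.73 to 46.6 on the others. PCL2 peaks without SUZ12 numbered 94.8 on chromosome 8, the highest of all chromosomes, but 57.2 on chromosome 6, which ranked 10th. JARID2 peaks numbered 34.7 on chromosome 6, the highest, and 30.5 on chromosome 8, which ranked 4th. JARID2 peaks without SUZ12 did not follow this, with 3.50% of 543 on chromosome 6 (interval 2.25 to 5.40%) and 4.79% on chromosome 8 (interval 3.29 to 6.92%). No input signal or karyotype was used here, and any part of chromosome copy number in these counts was not tested.

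Members on chromosomes 6 and 8 had a median width of 683 bp, against 519 bp on the other chromosomes. Of the 109 members there, 22 lay at most 1 kb from PCL2 (20.2%), against 34 of the 101 on the others (33.7%). JARID2 overlapped 3 of the 109 (2.75%, interval 0.940 to 7.78%), against 11 of the 101 (10.9%, interval 6.19 to 18.5%). A transcription start lay under 19.3% of members on chromosomes 6 and 8 and under 16.8% of members elsewhere.

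Fewer of the regions lay at genes than was the case for SUZ12 peaks with PCL2. An end of any annotated gene was within 1 kb of 96 of 210 (45.7%, interval 39.1 to 52.5%), against 67.1% of SUZ12 peaks with PCL2 (interval 66.0 to 68.1%). For protein-coding genes the shares were 35.7% (interval 29.5 to 42.4%), against 58.2% (interval 57.1 to 59.3%). At widths of 424 to 797 bp, 48.1% of members lay within 1 kb of a gene end (interval 38.7 to 57.6%), against 53.2% of peaks with PCL2 alone (interval 50.02 to 56.3%). For protein-coding genes these shares were 36.5% (interval 27.9 to 46.1%) and 43.4% (interval 40.3 to 46.5%), and in both cases the intervals overlapped. A transcription start lay under 38 of 210 (18.1%, interval 13.5 to 23.9%), against 43.3% (interval 42.2 to 44.5%). Starts of genes without a promoter window, such as Hook3, Rnf170 and B3gnt9, could not be counted, so the shares with a start may be too low. At widths of 424 to 797 bp, 20 of 104 members covered a start (19.2%, interval 12.8 to 27.8%), against 261 of 957 peaks with PCL2 alone (27.3%, interval 24.5 to 30.2%). These intervals overlapped, but the share of members was still the lower. Members were also narrower within this band, with a median of 557 bp against 638 bp, and the part of width in these shares was not tested.

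The promoters under these regions were mostly rich in CpG. The 49 promoter windows that members overlapped had a median of 28 CpG per 300 bases (quartiles 21 and 36), against 24 in 1785 windows at SUZ12 peaks with PCL2 alone, 21 in 2599 windows at peaks with both, and 7 in all 32817 windows of the genome. The ratio of observed to expected CpG, which corrects for base composition, had a median of 0.805 at members, 0.765 at peaks with PCL2 alone, 0.720 at peaks with both and 0.383 over all windows. Of the 49, 4 were at or below that last value, among them the Dync1i1 window, with 6 CpG and a ratio of 0.370, of which 75 bases lay under the member. The windows printed above had ratios of 0.708 (Bmi1), 0.936 (Smarca5) and 1.09 (Afg3l1). Windows made for at least 50% of 25-base words that recur in other windows numbered 0 of 49 at members (which allows up to 6.12%, 3 counts of the total), against 0.504% at peaks with PCL2 alone, 2.39% at peaks with both and 5.09% of all windows, so no difference was detectable. These windows represent the minority of members at promoters and do not describe the other regions. Promoters of genes without a window were left out.

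Protein-coding genes with an end within 1 kb of a member numbered 86 of 21887 (0.393%). Genes that hold a member only deeper inside, such as Gata4, Tal1 and Otp, were not counted by this measure, here or in the lists below. Of the genes counted, 20 also had an end within 1 kb of a SUZ12 peak with PCL2. Of the 86, 57 had no PCL2 peak within 1 kb of an end. SUZ12 peaks with PCL2 lay within 1 kb of an end of 4454 protein-coding genes (20.4%). From lists of genes of the Polycomb system, the members reached Bmi1 among 22 PRC1 genes, 9 of which lay near a SUZ12 peak with PCL2. They also reached Ezhip, the gene of a PRC2 inhibitor, among 8 non-core PRC2 genes, and none of 6 core PRC2 genes. Of 51 developmental regulators, 46 had an end within 1 kb of a SUZ12 peak with PCL2 and 1, Foxa2, within 1 kb of a member. Regulators that hold a member away from their ends would not be counted, so these values do not give how many members lie inside such genes. None of 20 naive pluripotency genes had an end within 1 kb of either kind of peak. RNA counts could not be tied to these genes, because the count tables carry Ensembl identifiers that no table used here pairs with symbols. For the same reason the label of embryonic stem cells was not checked against marker RNAs.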

How the data were processed

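The deposited files are 3 peak lists, in which the authors gave positions in base pairs only, and 24 tables of read counts per Ensembl identifier. The submitters' processing notes name Trimmomatic, Bowtie2 and mm10 for the immunoprecipitations, and STAR and HTSeq for RNA, without versions. Peak caller, threshold, pooling and treatment of reads that match several places are also not given in these sources. A SUZ12 peak counted as shared when at least 1 base lay under PCL2; a gap is the number of bases between peaks. Genes and promoter windows came from RefSeq tables of GRCm38.p6. A transcription start was counted only where a promoter window gave it, and several genes at members had none. The tables give no pairing of Ensembl identifiers with symbols, so the planned tests of RNA were not run.

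Promoter identity was the edit distance from edlib 1.3.9.post1, and repeats were counted as 25-base words, with pandas 2.3.3 and scipy 1.17.1 in Python 3.11.15. The steps that give gaps, bases under a peak and runs were tested on simulated peaks, and promoter identity and repeated words were not. Intervals are 95% Wilson intervals. Regions were named by a rule: the 10 widest, those with JARID2 near a protein-coding gene, runs of at least 3 and genes of fixed lists; others are said to be chosen after their values were seen. Members, lists and rules were chosen with earlier results of these data known. The alternatives tried were the overlap rule, narrower lists, the distance to a gene and the gap within a run; the separation of chromosomes 6 and 8 was added after the data were seen.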

Additional observations from a re-analysis of the deposited data

How the results depend on the processing

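The number of regions depended on the widths admitted to both lists. Asking for at least 10% of the SUZ12 peak under PCL2 gave 219 regions, and taking PCL2 within 1 kb as shared gave 154, with widths, gene shares and runs all close to those reported. With only PCL2 peaks of at least 500 bp the number was 378, of which 44.4% lay on chromosomes 6 and 8. With only SUZ12 peaks at least as wide as the median, 10 regions were left, with a median of 1618 bp, 20% overlapping JARID2, 70% within 1 kb of a gene end, 0% in runs and 60% on chromosomes 6 and 8. Without chromosomes 6 and 8, an alternative chosen after seeing the data, there were 101 regions, with a median of 519 bp, 10.9% overlapping JARID2 and 0% in runs. JARID2 overlapped 3.25% when PCL2 within 1 kb counted as shared. A gene end lay within 5 kb of 71.4%, and 74.8% overlapped a gene. Runs with gaps of up to 500 kb held 17.6%. Fewer peaks enter the 3 stricter lists by construction; otherwise the cause was not tested. No paired analysis was possible because the peak lists have no replicates and the RNA counts could not be tied to the regions, so all alternatives planned for RNA were not run.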
